A study of Mus musculus with 16 samples.

Results

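Protein-coding mRNAs with a long 3' UTR were followed in mouse brain with and without UPF3B. They were the transcripts of the deposited count matrices that the annotation types as protein-coding, with a complete coding end, an annotated 3' UTR of at least 3000 nt and no downstream exon junction (dEJ), meaning no exon junction 50 nt or more after the stop codon. This rule used no measured value, but the set was chosen with earlier results of these data known. It selected 7210 of 142435 transcripts, from 3791 genes, after 27 transcripts with a 3' UTR of that length were left out for a dEJ. The comparison set was the 1771 protein-coding transcripts with a 3' UTR under 1000 nt from the same genes, which lay in 1064 of those genes. RNA came from the frontal cortex (FC) and the cerebellum (Cere) of adult mice of genotype Upf3b_KO, which are null for Upf3b, and of littermates of genotype Ctrl. Each tissue and genotype had 4 libraries, and no group had received a treatment. The labels give neither strain, sex nor exact age, and do not link the 2 tissues of a mouse. Library 1 of the Upf3b-KO cerebellum held 64981 counts against 27660078 to 35238677 in the others and was left out, so the cerebellar comparisons set 3 Upf3b-KO against 4 Ctrl libraries.

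Nonsense-mediated decay (NMD) is a translation-coupled pathway that degrades a subset of mRNAs. Its best known trigger is an exon junction complex left downstream of the stop codon, and UPF3B is the adaptor that links this complex to the NMD factor UPF2. A long 3' UTR is the other feature often named as inducing NMD. It separates the terminating ribosome from the poly(A) tail, and the RNA helicase UPF1 binds along it. Long 3' UTRs are common in brain mRNAs, where they carry binding sites for microRNAs and for RNA-binding proteins, and many are made by use of a distal poly(A) site in the last exon. Some long 3' UTRs bind proteins near the stop codon, such as PTBP1 or hnRNP L, that protect the mRNA from UPF1.

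The 3' UTRs of the members had a median length of 4112 nt, with the middle of the distribution between 3474 and 5250 nt, and reached 122583 nt in Nopchap1. Windows of 30 bases at the ends of the 3' UTRs are shown for the genes that the results below turn on, because the end of the transcript is what separates a long 3' UTR from a short one of the same gene. They are genomic sequence of GRCm39 with the transcript ends of GENCODE vM39, written 5′ to 3′ on the transcript's strand. Capitals mark the last AATAAA or ATTAAA in the final 50 nt, the hexamers of the poly(A) signal, and a window without capitals ends at the transcript end and had neither hexamer there. The first set holds genes in which the share of a long transcript moved, and for some of them the end of a short transcript of the same gene.
Acsl6 long, 3564 nt, shared by 7 members (chr11:54255544-54255573, plus strand): acttttgtaaaaAATAAAgattttttttat
Acsl6 short, 493 nt (chr11:54228522-54228551, plus strand): gatcagccagtgAATAAAagatatctttca
Mprip long, 5274 nt (chr11:59671648-59671677, plus strand): gaactgtatcatAATAAActatttttgcat
Mprip short (chr11:59667019-59667048, plus strand): ttttggttttttATTAAAtcttgcacaaaa
Ncam1 long, 3307 nt (chr9:49413445-49413474, minus strand): atacttgtgttcAATAAAagttgaaagaaa
Ncam1 short, 678 nt (chr9:49442585-49442614, minus strand): tacagaaaaggaAATAAAattatagcctga
Ncam1 short, 228 nt (chr9:49428580-49428609, minus strand): ccattgtatttgATTAAAagcccagttcct
Lrp8 long, 4530 nt (chr4:107734002-107734031, plus strand): atttctagagagATTAAAttcattttttaa
Lrp8 short, 506 nt (chr4:107729964-107729993, plus strand): gatttttttgtaAATAAAattatgctttgt
Rasgrf1, shared by the long 3' UTR of 4214 nt and a short one of 227 nt (chr9:89797858-89797887, plus strand): ttctaaatgcagATTAAAatgtctatcatt
Nfasc long, 5730 nt (chr1:132492432-132492461, minus strand): cactaaacgtatAATAAAagttgttcaaaa
Clasp1 long, 5895 nt, shared by 11 members (chr1:118540585-118540614, plus strand): atatactaaataAATAAAtctttttttttt
Clasp1 long, 5684 nt, a single member (chr1:118540379-118540408, plus strand): tggatgctctcatgtacgtgcatatatact
Atp2b2 long, 4732 nt (chr6:113720766-113720795, minus strand): taaacatcccaaggcctttttccgaaggac

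The second set holds genes whose long transcript was changed in both tissues.
Snapc1, 5069 nt (chr12:74035704-74035733, plus strand): gtaaaatataaaATTAAAatttaatttata
Ccn3, 4253 nt (chr15:54620125-54620154, plus strand): tgcattcctgaaattataATTAAAggttag
Kbtbd11, 4029 nt (chr8:15083287-15083316, plus strand): atgccaagacaaAATAAAccatgcggaaac
Slc5a3, 8260 nt (chr16:91884332-91884361, plus strand): gtaccaactttgAATAAAatgaaaacttta
Elovl7, 4424 nt (chr13:108423606-108423635, plus strand): cccaaataaataAATAAAtgcatttttaaa
Gabra2, 4205 nt (chr5:71114941-71114970, minus strand): tggatacctgtgATTAAAatttaaacattt
Scn4b, 3648 nt (chr9:45065420-45065449, plus strand): cgctttggatgaAATAAAaattatttttta
Kcnj13, 5003 nt (chr1:87309141-87309170, minus strand): atgaaagattagAATAAAcatgaccttctg

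In the first set the long end and the short end shown for Acsl6, Mprip, Ncam1 and Lrp8 each carry a hexamer, at different genomic positions. The long 3' UTR of Rasgrf1 and its short one of 227 nt share the hexamer shown, with transcript ends at positions 89797900 and 89797887. Of the 5 short ends listed for Lrp8, 3 have neither hexamer in their final 50 nt, and neither do the short ends of Nfasc (132 nt), Clasp1 (118 nt) and Atp2b2 (274 nt), which are not shown. AATAAA or ATTAAA was found in the final 50 nt of 74.1% of the 7210 members, of 45.6% of 1588 short transcripts of the same genes with at least 50 nt of 3' UTR, and of 69.4% of 43281 protein-coding transcripts in all. AATAAA further upstream was present in 91.5% of the members, against 16.8% of the short transcripts and 48.8% of all protein-coding transcripts, with a median of 3 copies per member. The shares with an upstream AATAAA were not scaled for length, and a longer 3' UTR has more places for it. The median GC content was 42.0% in the members, 42.4% in the short transcripts and 43.8% in all protein-coding transcripts.

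Motifs of proteins that bind 3' UTRs were counted on the transcript strand, with overlapping matches allowed. Per kb of 3' UTR, the AU-rich pentamer ATTTA occurred 1.91 times in members and 1.83 times in short transcripts, and the Pumilio motif TGTANATA 0.223 and 0.234 times. The CA repeat CACACACA, a sequence that hnRNP L binds, occurred 0.678 times per kb in members, 0.337 in short transcripts and 0.628 in all protein-coding transcripts. The pyrimidine motif TTCTCT, bound by PTBP1 and PTBP2, occurred 0.749, 0.630 and 0.729 times per kb. Within the first 400 nt after the stop codon, the stretch where protective proteins are known to bind, CACACACA was found in 3.703% of members, in 3.37% of the 653 short transcripts whose 3' UTR has at least 400 nt and in 3.52% of the 31498 such protein-coding transcripts in all, and TTCTCT in 23.9%, 21.1% and 23.4% of these. The members thus held CA repeats more densely than their short counterparts over the 3' UTR as a whole.

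The members were long in other ways too. Their median length was 6330 nt, with a coding sequence of 1452 nt in 9 exons, whereas the short transcripts measured 1461 nt with 918 coding nt in 6 exons. The 3' UTR lay in a single exon in 6982 of the 7210 members. Of the members, 60.7% were detected in all 15 deep libraries and 628 (8.71%) were at 0 in all of them. Of the short transcripts, 29.6% were detected throughout and 243 (13.7%) were at 0. The median level per length was 2.21 TPM in members and 0.361 TPM in short transcripts. Only 2080 of the members lie in genes with a short transcript, so these medians do not compare forms within genes.

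Many members share the sequence by which they were chosen. The 7210 members have only 4139 distinct pairs of stop codon and transcript end, and 4832 members (67.0%) shared both, within 30 nt, with another member of the gene. Such transcripts differ only in their 5' UTR or coding exons, and the counting model divided the reads of the common 3' UTR among them. For 617 members (8.56%), part of the 3' UTR overlay coding sequence of another transcript of the gene, by 100 nt or more in 340. In 9 genes, 19 members had counts identical to those of another member in every library, among them 3 transcripts of Wdfy1 and 2 of Oprk1, and such sets are not separate measurements. With each set entered once, the members upregulated in frontal cortex, described below, were 55 in place of 58, those downregulated 28 in place of 29, and those upregulated in the cerebellum 237 in place of 240. Values of single members of a gene are therefore less certain than the sum over the gene.

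Across the whole series, Upf3b itself checked the labels, with a summed level of 14.8 ± 0.64 CPM (read counts scaled to the library total; SD, n = 4) in Ctrl and 0.559 ± 0.26 CPM (n = 4) in Upf3b-KO frontal cortex, and 22.7 ± 1.2 (n = 4) and 0.737 ± 0.20 CPM (n = 3) in the cerebellum. Replicates were close, with a median coefficient of variation of 1.87% to 2.23% over genes averaging at least 2000 counts. Transcript counts of each pair differed beyond sampling noise. The division of reads among transcripts can add to that difference, so it does not show that the libraries are separate mice. Per the study's text, both tissues were taken from the same 4 Upf3b-null and 4 littermate Ctrl mice, but the labels do not say which libraries share a mouse. The p-values measure the spread between these libraries, which may be technical. A count of 3 reads corresponds to 0.0851 to 0.108 CPM in the deep libraries and to 46.2 CPM in the shallow one. Markers of cell types moved with genotype. The 6 choroid plexus markers summed to 20.8 to 22.1 CPM in Ctrl and 2156 to 2209 CPM in Upf3b-KO frontal cortex, and to 25.04 to 28.8 and 1369 to 1391 CPM in the cerebellum, with 6 of 6 upregulated in each tissue. The 8 striatal markers summed to 162 to 174 CPM in Ctrl and 782 to 795 CPM in Upf3b-KO frontal cortex, all 8 upregulated, and to 369 to 380.2 and 336 to 346 CPM in the cerebellum, where 3 of 8 were upregulated. The 6 male germ cell markers went from 17.1 to 19.9 CPM in Ctrl to 108 to 113 CPM in Upf3b-KO frontal cortex, with 6 of 6 upregulated, and from 29.5 to 31.996 to 17.99 to 18.9 CPM in the cerebellum, with 3 upregulated and 1 downregulated. In the cerebellum the 6 cerebellar markers summed to 3547 to 3567 CPM in Ctrl and 1827 to 1843 CPM in Upf3b-KO with 3 downregulated, the 5 oligodendrocyte markers to 5149 to 5279 and 11240 to 11336 CPM with 4 upregulated, and the 4 astrocyte markers to 3657 to 3703 and 2224 to 2248 CPM with 1 downregulated. In frontal cortex the oligodendrocyte markers summed to 5989 to 6077 and 7883 to 7949 CPM and the astrocyte markers to 2231 to 2272 and 1739 to 1767 CPM, with none called, and of the cerebellar markers, at 8.98 to 10.4 CPM in Upf3b-KO, 1 was downregulated. The 4 microglial markers, none called, summed to 277 to 289 and 298 to 303 CPM in frontal cortex and to 81.5 to 85.3 and 109.7 to 112.3 CPM in the cerebellum. None of these markers was at 0 in any group. The tissues matched their labels, with cortical neuron markers at 1585 to 1649 CPM in Ctrl frontal cortex against 480 to 500.2 CPM in Ctrl cerebellum, where 1 of the 6 was at 0, and cerebellar markers at 11.3 to 14.2 CPM in Ctrl frontal cortex. In Upf3b-KO the 6 cortical neuron markers summed to 1481 to 1496 CPM in frontal cortex and 310.1 to 319 CPM in the cerebellum, with none called. In bulk tissue, fewer cells of a type and less RNA per cell cannot be told apart.

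The members took a nearly fixed part of each library. In Ctrl frontal cortex the 4 libraries gave them 22.946%, 22.757%, 22.852% and 22.807% of all counts, a mean of 22.8% ± 0.081 (SD, n = 4). In Upf3b-KO frontal cortex the share was 22.676%, 22.661%, 22.583% and 22.637%, or 22.6% ± 0.041 (n = 4), with every library under the lowest Ctrl library. Ctrl libraries of the cerebellum had 22.889%, 23.025%, 23.160% and 22.977% (23.0% ± 0.11, n = 4). The 3 deep Upf3b-KO libraries of the cerebellum had 21.781%, 21.771% and 21.808% (21.8% ± 0.019), again all lower. The shares lay on the same side of Ctrl in both tissues, close to it in frontal cortex and farther from it in the cerebellum. Within the genes that have both kinds, the ratio of summed long to summed short counts was 2.68 ± 0.013 on the log2 scale in Ctrl and 2.74 ± 0.0082 in Upf3b-KO frontal cortex, and 2.69 ± 0.017 and 2.67 ± 0.0042 in the cerebellum. This ratio was higher in every Upf3b-KO library of the frontal cortex and lower in every deep one of the cerebellum, the latter by a margin under 0.01.

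**Figure D1:**
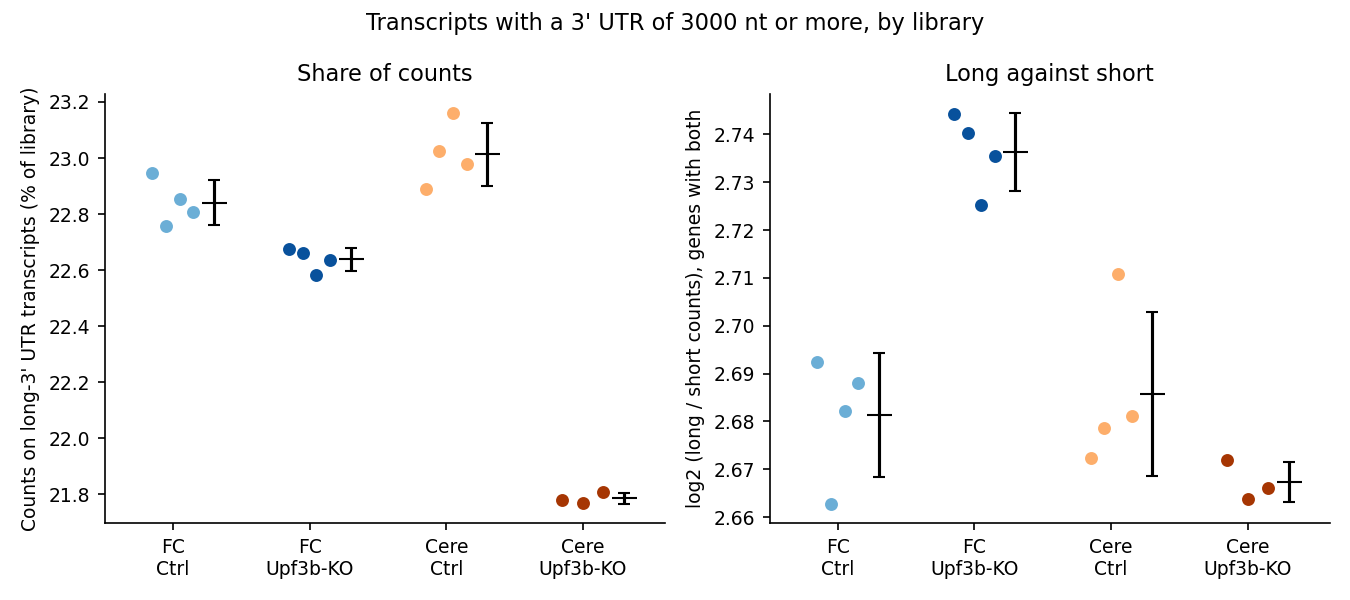
Each point is a library, by tissue and genotype, with the group mean and SD. Left, counts of the long 3' UTR transcripts in percent of all counts of the library. Right, log2 ratio of counts of long to counts of short transcripts in genes with both kinds. The vertical axes do not start at 0. Upf3b-KO libraries lie under Ctrl on the left, most clearly in the cerebellum (21.8% against 23.0%), while on the right they lie above Ctrl in frontal cortex only.

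The first question was whether loss of UPF3B raised mRNAs with long 3' UTRs. In frontal cortex, 58 members were upregulated and 29 were downregulated by the test used throughout, edgeR's quasi-likelihood F test over all transcripts with Benjamini-Hochberg adjusted p under 0.01 and a change over 2-fold. Of 5236 members with enough counts to be tested, from 3247 genes, this was 1.11% up and 0.554% down, against 2.76% up and 0.463% down among all 42318 transcripts tested. The other 1974 members did not reach the count filter. The calls lay in 55 and 28 genes, and 5 of those up had no count in any Ctrl library and 2 of those down none in any Upf3b-KO library. Of 3054 members averaging 10 CPM or more (this limit was chosen once the data had been seen) 17 (0.557%) rose and 16 (0.524%) fell, against 1.11% and 0.480% of 13124 transcripts at that level. Under the 2-fold rule the share of upregulated members was below that of the whole transcriptome, and the share of downregulated members close to it. The balance differed when changes of any size were counted and the adjusted p had to be below 0.05. Then 454 members (8.67%) were higher and 765 (14.6%) lower in Upf3b-KO frontal cortex, against 8.67% and 7.68% of all transcripts. The median log2 fold change over tested members was -0.03, with quartiles of -0.23 and 0.21, beside 0.01 over all transcripts and -0.00 over the short transcripts of the same genes. Among the 732 short transcripts tested, 8 were upregulated and 1 was downregulated.

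The upregulated members of the frontal cortex with the smallest adjusted p included Scn4b, Pde10a and Kcnj13. Scn4b, the sodium channel subunit β4 (chr9:45049595-45065450, 3' UTR 3648 nt), measured 28.5, 30.1, 25.7 and 27.2 CPM in Ctrl and 172, 173, 168 and 173 CPM in Upf3b-KO frontal cortex. The groups were far apart, with a log2 fold change of 2.56 ± 0.047 (SE) and an adjusted p of 4.03e-08. Pde10a, a phosphodiesterase abundant in striatal neurons (ENSMUST00000089085, chr17:9020525-9205480), went from 30.5, 31.98, 27.3 and 35.3 CPM to 141, 159.6, 142 and 151 CPM, a log2 fold change of 2.18 ± 0.080 (adjusted p = 1.31e-06). All 8 striatal markers were upregulated in the same libraries, from 162 to 174 CPM to 782 to 795 CPM in sum, and the part of those cells in the result was not tested. Kcnj13, an inward-rectifier potassium channel of the choroid plexus and itself on that marker list (chr1:87309135-87322456), went from 2.72 to 3.87 CPM in Ctrl to 45.3 to 48.4 CPM in Upf3b-KO, a log2 fold change of 3.75 ± 0.10 (adjusted p = 3.07e-07).

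Tmem72, with a 3' UTR of 15988 nt (chr6:116656024-116693884), measured 0.329, 0.246, 0.170 and 0.226 CPM in Ctrl and 17.7, 15.4, 16.4 and 15.6 CPM in Upf3b-KO frontal cortex. Its log2 fold change was 5.99 ± 0.20 (adjusted p = 7.8e-07). In the cerebellum it was at 0.325, 0.237, 0.165 and 0.598 CPM in Ctrl and at 10.4, 10.8 and 8.97 CPM in Upf3b-KO (4.91 ± 0.43, adjusted p = 0.000232). The choroid plexus markers moved the same way in the same libraries in both tissues, and their part in the result was not tested. Gabra2, the α2 subunit of the GABA-A receptor (chr5:71114940-71253662), went from 24.8 to 30.8 CPM in Ctrl to 102 to 107 CPM in Upf3b-KO, a log2 fold change of 1.82 ± 0.062 (adjusted p = 8.56e-07). Ark2n, on chromosome 18, went from 6.68 ± 0.11 to 37.4 ± 2.2 CPM (n = 4 each), a log2 fold change of 2.42 ± 0.058.

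The downregulated members of the frontal cortex with the smallest adjusted p included Ccn3, Fibcd1 and Snapc1. Ccn3, a secreted matricellular protein (chr15:54609012-54620154), measured 215, 221, 219 and 222 CPM in Ctrl and 103, 103, 98.5 and 103 CPM in Upf3b-KO, and its log2 level fell by 1.17 ± 0.021 (adjusted p = 3.35e-08). Fibcd1, a membrane receptor that binds chitin (chr2:31702948-31736233), measured 79.0, 83.5, 81.8 and 81.9 CPM and then 39.5, 38.3, 38.3 and 40.6 CPM (log2 fold change -1.12 ± 0.031, adjusted p = 2.83e-07). Snapc1, a subunit of the complex that activates small nuclear RNA genes (chr12:74011193-74035740), measured 61.8, 61.2, 58.1 and 60.7 CPM and then 29.5, 29.0, 29.9 and 28.8 CPM (-1.11 ± 0.031, adjusted p = 3.07e-07). In each of these 3 the Upf3b-KO libraries lay at about the middle between 0 and Ctrl, with no overlap. Kbtbd11 (chr8:15061025-15083333) went from 72.7 ± 0.94 to 27.7 ± 1.9 CPM, and Slc5a3, the myo-inositol transporter (chr16:91854965-91884361, 3' UTR 8260 nt), from 47.1 ± 2.2 to 19.4 ± 0.87 CPM (n = 4 each).

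Some calls concerned a transcript and not its gene. Of the 58 upregulated members of the frontal cortex, the summed counts of the gene were also called for 40 (9.16% of all genes were called up and 1.06% down), while for 14 the gene's log2 fold change was within 0.5 of 0. Of the 29 downregulated members the gene was called for 16 and lay within 0.5 for 5. Camk2a, the α subunit of a calcium-dependent kinase, shows this. Its member ENSMUST00000025519 measured 316, 347, 337 and 363 CPM in Ctrl and 155, 164, 171 and 151 CPM in Upf3b-KO frontal cortex (-1.15 ± 0.052, adjusted p = 3.68e-06). The main member of the gene, ENSMUST00000102888, shares the same 3' UTR of 3372 nt and went from 2128 ± 22 to 2530.1 ± 21 CPM (0.19 ± 0.0097), and the gene as a whole differed by 0.05. The 3' UTR of Camk2a was thus present at nearly the same summed level while counts moved between transcripts that carry it.

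In the cerebellum more members changed. Of 5284 tested, from 3253 genes, 240 (4.54%) were upregulated and 82 (1.55%) were downregulated, against 3.45% and 1.31% of all 44388 transcripts, and 1926 members were not tested. With Upf3b-KO library 1 kept in, 119 of 5062 members were up and 63 down. The calls lay in 217 and 77 genes, with no count in any Ctrl library for 15 of those up and none in any deep Upf3b-KO library for 8 of those down, and of 3000 members averaging 10 CPM or more 96 (3.20%) were up and 59 (1.97%) down, against 3.42% and 2.02% of 13196 transcripts at that level. Under the 2-fold rule the upregulated share over all members tested was above that of the transcriptome, but at 10 CPM or more it was not. With changes of any size counted and the adjusted p below 0.05, 857 members (16.2%) were higher in Upf3b-KO cerebellum. By the same count 1043 members (19.7%) were lower, and the shares over all transcripts were 12.3% higher and 10.3% lower. The median log2 fold change of the tested members was -0.04 (quartiles -0.35 and 0.37), again below the 0.01 of all transcripts and the 0.02 of the short transcripts. Of 768 short transcripts tested, 9 were upregulated and 6 downregulated. The gene sum was called for 201 of the 240 and for 53 of the 82, where 10.3% of all genes were called up and 2.86% down. Members were therefore spread more widely in both directions in the cerebellum around a median slightly under 0.

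The downregulated members of the cerebellum with the smallest adjusted p include genes known for Purkinje cells. Rgs8, a regulator of G protein signalling (ENSMUST00000111810, chr1:153541455-153576069, 3' UTR 7416 nt), measured 2074, 2045, 2083 and 2056 CPM in Ctrl and 830.0, 809 and 817 CPM in Upf3b-KO, a log2 fold change of -1.34 ± 0.013 (adjusted p = 9.16e-09). Calb1, the calcium buffer calbindin (chr4:15881184-15908064), measured 2541, 2619, 2654 and 2587 CPM in Ctrl and 1001, 1014 and 1013 CPM in Upf3b-KO (-1.37 ± 0.017, adjusted p = 3.19e-08). Of the 6 cerebellar markers, 3 were downregulated in the same libraries, with the summed level at 1827 to 1843 CPM against 3547 to 3567 CPM in Ctrl, and the part of those cells in the result was not tested.

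Other members fell with them. Stk17b, a kinase, went from 175 ± 1.5 CPM (n = 4) to 66.1 ± 0.61 CPM (n = 3), Icmt, which methylates prenylated proteins, from 783 ± 12 to 323 ± 6.4 CPM, Gdf10, a ligand of the TGFβ family, from 262 ± 4.8 to 97.3 ± 2.5 CPM, and Gas7 from 71.5 ± 2.7 to 21.1 ± 0.46 CPM. On the log2 scale they differed by -1.41 ± 0.018, -1.28 ± 0.018, -1.43 ± 0.024 and -1.76 ± 0.041. In frontal cortex all 4 were at a lower level in Ctrl and none was called.

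Several upregulated members of the cerebellum code for enzymes and transporters. Of the 5 oligodendrocyte markers, 4 were upregulated in the cerebellum and none in frontal cortex by this limit, and their part in the results for these members was not tested. Arhgef4, a guanine nucleotide exchange factor (ENSMUST00000047664), measured 62.8, 62.0, 64.6 and 63.1 CPM in Ctrl and 174, 175 and 176 CPM in Upf3b-KO cerebellum (1.47 ± 0.021, adjusted p = 5.65e-08). Nat8l, which makes N-acetylaspartate, went from 73.7 ± 0.99 to 168 ± 4.5 CPM (1.19 ± 0.025), and B3galt5, a galactosyltransferase, from 44.3 ± 1.3 to 117 ± 1.6 CPM (1.40 ± 0.030). Slc12a2, the cotransporter NKCC1 on chromosome 18, went from 81.6 ± 1.4 to 165 ± 1.7 CPM (1.01 ± 0.021), just over the limit, and without Ctrl library 2 its value of 0.997 was under it.

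Over tested protein-coding transcripts with a complete end and no dEJ, the difference from Ctrl went down step by step with the length of the 3' UTR. In frontal cortex the median log2 fold change was 0.07 for 3' UTRs under 500 nt (6329 transcripts), 0.01 for 500 to 1000 nt, -0.00 for 1000 to 2000 nt, -0.01 for 2000 to 3000 nt, -0.02 for 3000 to 4000 nt and for 4000 to 6000 nt, -0.07 for 6000 to 10000 nt (724) and -0.15 for 10000 nt or more (93). For the cerebellum, these steps gave 0.12, 0.08, 0.03, -0.01, -0.02, -0.03, -0.13 (724) and -0.21 (94). The members thus lay at the low end of a graded order in both tissues, with the longest 3' UTRs the farthest below Ctrl. The upregulated share was 7.47% under 500 nt and 2.15% at 10000 nt or more in frontal cortex, and 3.90% and 5.32% in the cerebellum.

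Library by library, the longest 3' UTRs also lay lowest. For 3' UTRs of 10000 nt or more, the median shift from the Ctrl mean, on the scale log2(CPM + 0.5), was -0.145 to -0.113 in the Upf3b-KO libraries of the frontal cortex and -0.031 to 0.016 in its Ctrl libraries. The cerebellar shift was -0.229 to -0.204 against -0.010 to 0.007. For 6000 to 10000 nt the shifts were -0.089 to -0.071 and -0.148 to -0.126 in the Upf3b-KO libraries of frontal cortex and cerebellum. Between 2000 to 3000 nt and 3000 to 4000 nt the shift did not go down in Upf3b-KO library 1 of the frontal cortex (-0.0261 and -0.0247) or library 3 of the cerebellum (-0.0235 and -0.0149). From 3000 nt up, all Upf3b-KO libraries were lower than all Ctrl libraries in each step. The rule's limit did not mark an edge in this order, since transcripts within 100 nt above it had medians of -0.01 (301, frontal cortex) and 0.03 (284, cerebellum) and those within 100 nt below it -0.07 (284) and 0.01 (271).

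**Figure D2:**
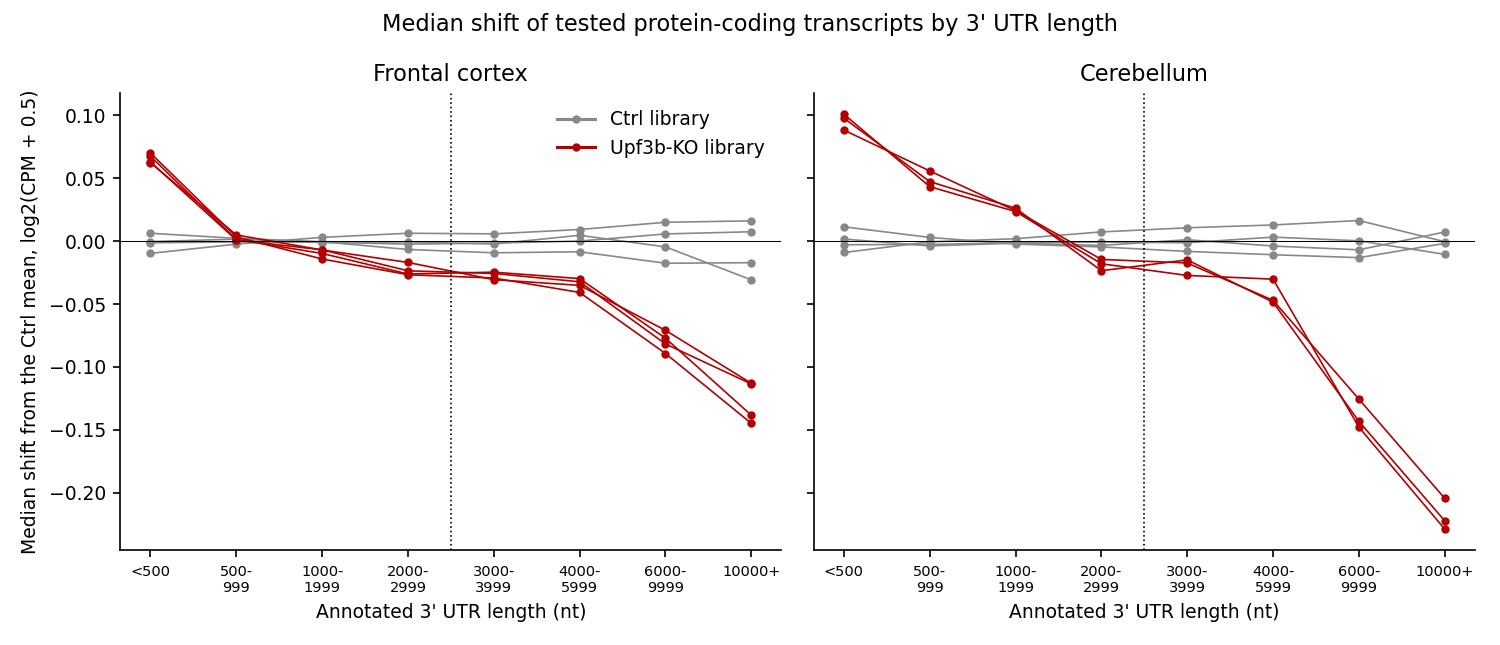
Median difference from the mean of the Ctrl libraries, on the scale log2(CPM + 0.5), over tested protein-coding transcripts without a dEJ in 8 classes of 3' UTR length, for frontal cortex and cerebellum. Each line is a library, and the dotted line marks 3000 nt. Upf3b-KO libraries fall below Ctrl with length, to between -0.145 and -0.113 in frontal cortex and between -0.229 and -0.204 in cerebellum at 10000 nt or more.

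Length, level and base composition moved with this order. Among protein-coding transcripts without a dEJ and of 8000 nt or more in total, the frontal cortex medians were 0.16 for a 3' UTR under 1000 nt (137 transcripts), 0.07 for 1000 to 3000 nt (308) and -0.03 for members (1278), while in the cerebellum they were -0.05 (131), 0.01 (315) and -0.10 (1295). At 3000 to 5000 nt in total the 3 classes had 0.06, -0.00 and -0.05 in frontal cortex and 0.07, 0.00 and 0.02 in the cerebellum. At a fixed total length, members were therefore lowest in frontal cortex, whereas the order in the cerebellum depended on the total length. By mean level, members were set beside the other protein-coding transcripts without a dEJ, whose 3' UTR was under 3000 nt. Members under 1 CPM were upregulated in 1.57% of cases in frontal cortex against 5.23% of these other transcripts, members of 1 to 10 CPM in 1.96% against 6.04%, and members of 10 CPM or more in 0.557% against 0.963%. Cerebellar members and others in these classes gave 4.65% against 4.11%, 6.84% against 5.76% and 3.20% against 3.33%. The lower share of upregulated members in frontal cortex was thus present in each of these level classes. The sign of the median was not the same in all of them. In frontal cortex the members had medians of 0.11, 0.06 and -0.06 in the classes from the lowest to the highest level, beside 0.29, 0.10 and -0.04 for the other transcripts, and in the cerebellum 0.32, 0.08 and -0.09, beside 0.31, 0.12 and -0.00. The median over members was thus below 0 only in the class of 10 CPM or more.

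Members with AT-rich 3' UTRs lay lower. In 4 equal classes by GC content of the 3' UTR, from the lowest to the highest, the median log2 fold changes were -0.06, -0.04, 0.00 and -0.01 in frontal cortex and -0.12, -0.07, 0.01 and 0.02 in the cerebellum. Members with CACACACA in the first 400 nt had a median of -0.03 (197) in frontal cortex against -0.03 without it, and 0.06 (202) against -0.04 in the cerebellum. With TTCTCT there, the medians were -0.04 (1203) against -0.02 and -0.02 (1219) against -0.04. Members with TGTANATA anywhere in the 3' UTR had -0.04 (2995) against -0.01 and -0.06 (3003) against -0.00. GC content, length and motif counts were not separated from one another in these medians.

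The 2 tissues were set side by side over the 5008 members tested in both. Of these, 49 were upregulated in frontal cortex and 229 in the cerebellum, and 24 in both, which is 49.0% of the first and 10.5% of the second list. The 24 hold the 3 transcripts of Wdfy1 and 2 of Oprk1 with identical counts, and with each set entered once they were 21, or 45.7% of 46 and 9.29% of 226. Downregulated were 27 and 72, with 10 in both (37.0% and 13.9%). Of the 38042 transcripts tested in both tissues, 0.697% were upregulated in both and 0.176% downregulated in both, against 0.479% and 0.200% of the members. These shared calls were 37.7% of all transcripts upregulated in frontal cortex and 18.7% of those in the cerebellum, and 38.7% and 14.8% of those downregulated. The shared list holds Kcnj13, itself a choroid plexus marker, and Tmem72, and the 6 choroid plexus markers were upregulated in both tissues, with their part in the result not tested. Of the 49, 45 also had a positive value in the cerebellum, with a median log2 fold change of 1.32. Of the 229, 120 had a positive value in frontal cortex, with a median of 0.04. Opposite calls were made for 3 members, Fibcd1, Pirt and Rab27b, all downregulated in frontal cortex and upregulated in the cerebellum.

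**Figure D3:**
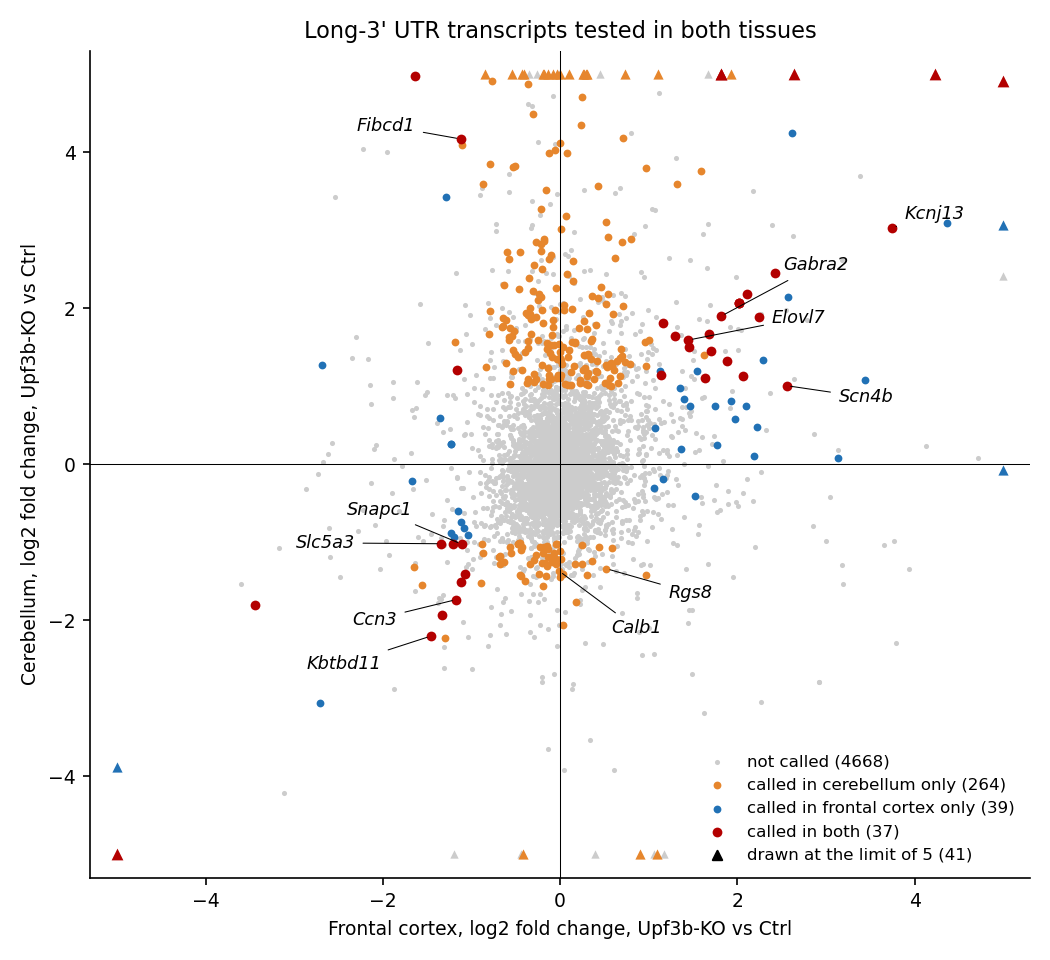
Log2 fold change of Upf3b-KO over Ctrl in frontal cortex (horizontal) and cerebellum (vertical) for the 5008 long 3' UTR transcripts tested in both tissues, coloured by where they were called. Triangles stand for the 41 members drawn at the limit of 5. The cerebellum holds 264 members called there alone and frontal cortex 39, while 37 were called in both (34 with identical counts entered once), of which Fibcd1 is the labelled one with opposite signs.

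Members called in both tissues had like sizes of change for some genes and unlike sizes for others. Snapc1 measured 64.8, 66.4, 66.0 and 64.3 CPM in Ctrl and 32.2, 31.9 and 32.7 CPM in Upf3b-KO cerebellum, and its log2 fold change of -1.02 ± 0.030 (adjusted p = 1.13e-06) differed from that in frontal cortex by 0.09 ± 0.040 (adjusted p of the interaction = 0.199). Elovl7, an enzyme that elongates long-chain fatty acids (chr13:108350937-108423639), went from 16.9 ± 1.2 to 48.1 ± 3.8 CPM in frontal cortex, then from 20.2 ± 2.0 to 61.0 ± 1.9 CPM in the cerebellum (1.45 ± 0.072 and 1.59 ± 0.079). Gabra2 measured 16.4, 16.9, 17.7 and 18.8 CPM in Ctrl and 69.9, 58.2 and 67.1 CPM in Upf3b-KO cerebellum (1.90 ± 0.078), within 0.09 ± 0.10 of frontal cortex. Ark2n had 2.42 ± 0.058 in frontal cortex and 2.45 ± 0.058 in the cerebellum. For these 4 genes the difference between tissues was not called.

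Kbtbd11 and Ccn3 had larger falls in the cerebellum, but neither difference between tissues was called. Kbtbd11 measured 84.3, 82.2, 82.9 and 78.9 CPM in Ctrl and 14.4, 18.9 and 20.3 CPM in Upf3b-KO cerebellum, with log2 fold changes of -1.46 ± 0.049 in frontal cortex and -2.20 ± 0.12 in the cerebellum and a difference of -0.74 ± 0.12 (adjusted p = 0.00062). The other well-measured transcript of the gene, ENSMUST00000183471, is annotated for nonsense-mediated decay with a 3' UTR of 3681 nt and so is no member. It went from 0.300 to 17.6 CPM in frontal cortex, then from 0 to 19.7 CPM in the cerebellum. Ccn3 measured 50.7, 51.6, 48.4 and 49.2 CPM in Ctrl and 13.4, 14.9 and 16.8 CPM in Upf3b-KO cerebellum (-1.73 ± 0.080, adjusted p = 8.93e-06). Socs6, an inhibitor of cytokine signalling on chromosome 18, went from 25.05 ± 1.7 to 10.4 ± 0.74 CPM and from 34.5 ± 2.4 to 9.03 ± 0.78 CPM (-1.34 ± 0.080 and -1.93 ± 0.090).

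Scn4b and Slc5a3 stood close to the 2-fold limit in the cerebellum. Scn4b measured 119, 123, 122 and 122 CPM in Ctrl and 243, 246 and 244 CPM in Upf3b-KO (1.01 ± 0.019), and the call was lost without Ctrl library 1, where the value was 0.99. Slc5a3 measured 54.2, 58.8, 57.7 and 53.7 CPM in Ctrl and 26.9, 26.2 and 30.2 CPM in Upf3b-KO (-1.02 ± 0.065), with values of -0.998 without Ctrl library 2, -0.99 without Upf3b-KO library 2 and -0.98 without Upf3b-KO library 3. Kcnj13 went from 3.13 to 3.82 CPM in Ctrl to 27.1 to 28.6 CPM in Upf3b-KO cerebellum (3.03 ± 0.099).

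**Figure D4:**
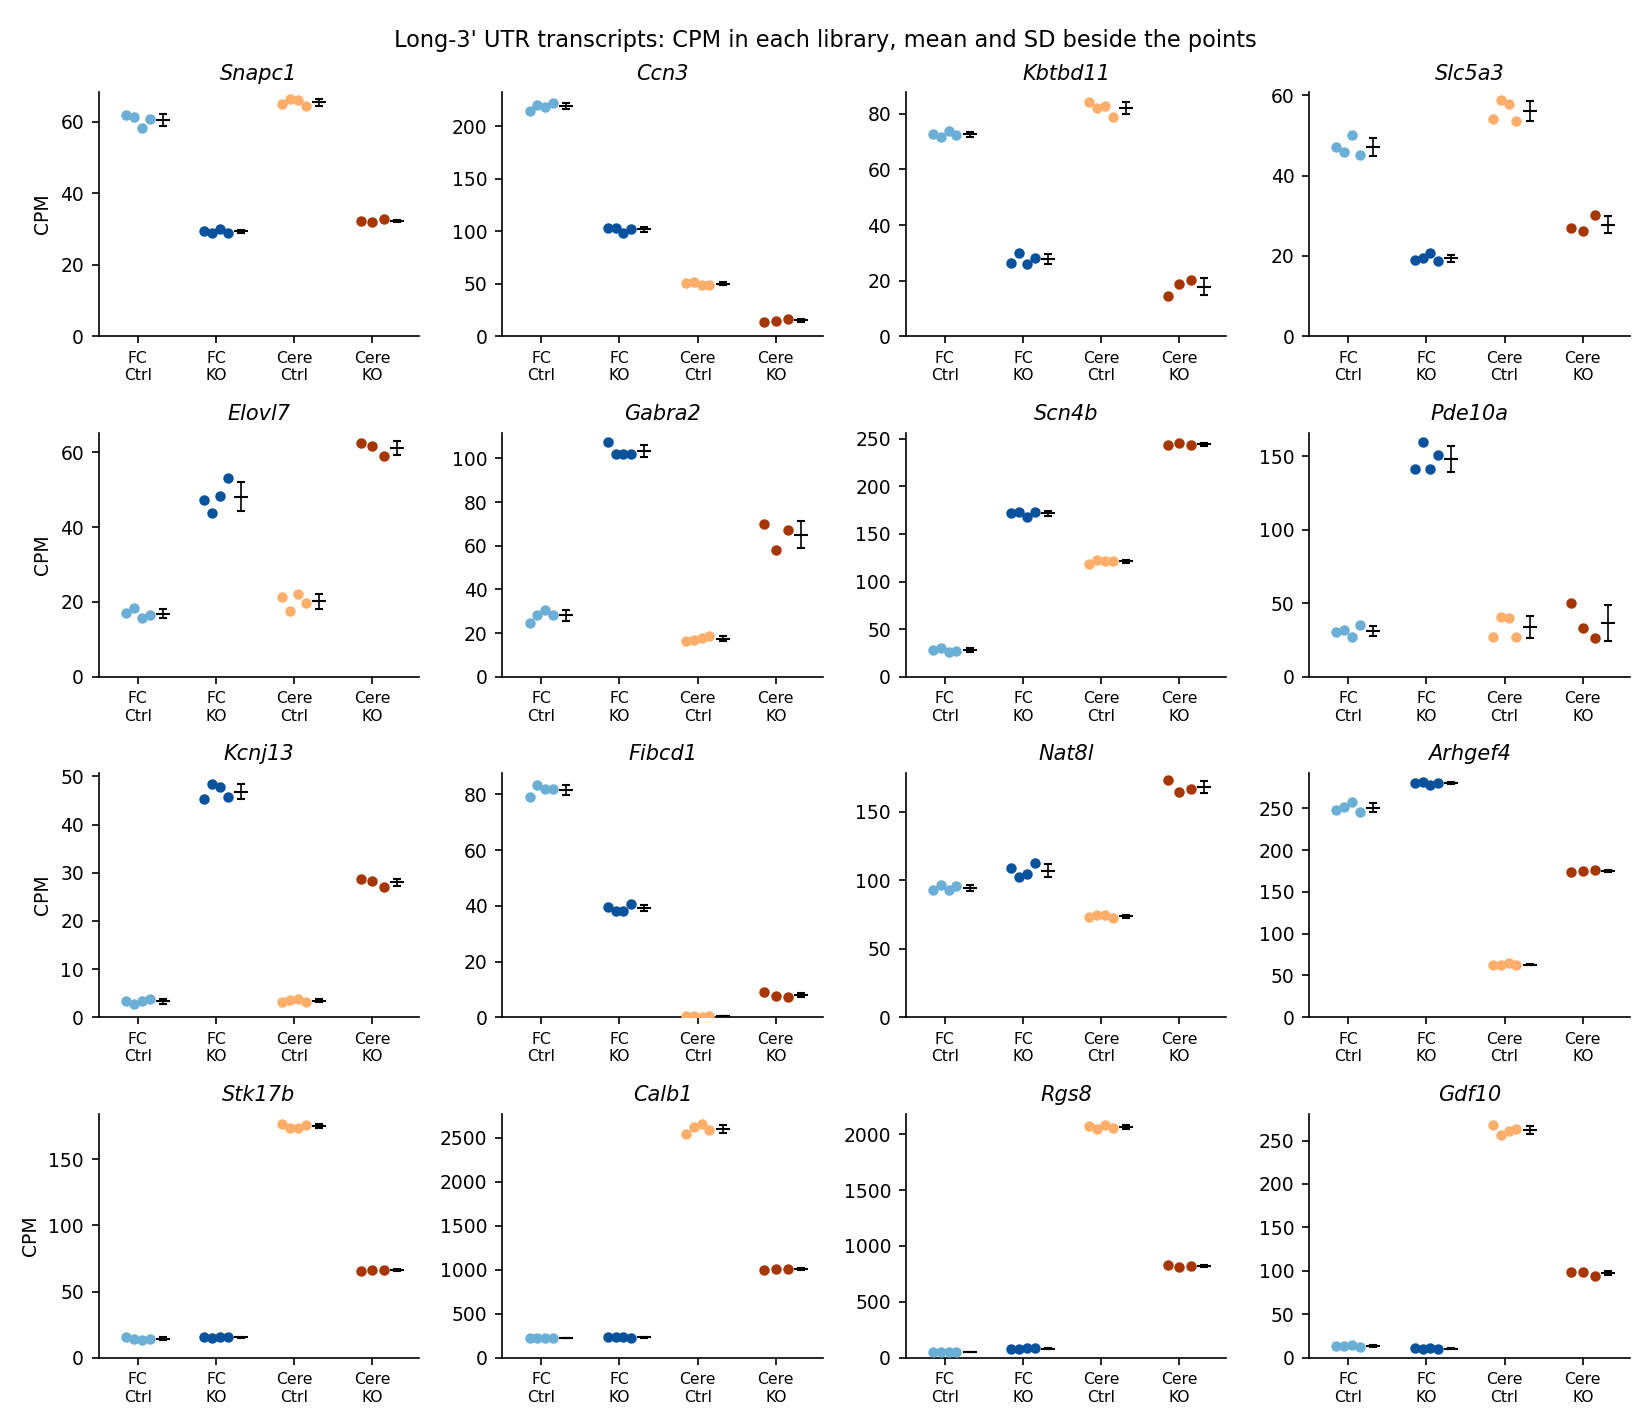
CPM of 16 long 3' UTR transcripts in every library, by tissue and genotype, with the group mean and SD, each panel from 0. Snapc1 sits near 60 CPM in both Ctrl groups and near 30 CPM in both Upf3b-KO groups, while Calb1 and Rgs8 differ from Ctrl mainly in cerebellum, where Ctrl has 2541 to 2654 and 2045 to 2083 CPM.

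Further members called in both tissues were singled out after their values were seen. Slc5a7, the choline transporter of cholinergic neurons, measured 0.404, 1.25, 0.788 and 0.988 CPM in Ctrl and 5.94, 6.51, 3.89 and 5.95 CPM in Upf3b-KO frontal cortex (2.64 ± 0.37, adjusted p = 0.00181). In the cerebellum it measured 0.134, 0.135, 0.198 and 0 CPM in Ctrl and 39.7, 42.6 and 41.0 CPM in Upf3b-KO (8.31 ± 0.41, adjusted p = 1.3e-05). Prlr, the prolactin receptor, went from 1.02 to 20.1 CPM and from 0.202 to 9.30 CPM, and Slc2a12, a glucose transporter, from 6.69 to 33.2 CPM and from 4.10 to 15.2 CPM. Etnppl, an astrocyte enzyme, went from 48.2 to 21.9 CPM in frontal cortex, then from 177 to 87.4 CPM in the cerebellum. The 4 astrocyte markers summed to less in the same Upf3b-KO libraries, at 1739 to 1767 CPM against 2231 to 2272 CPM in frontal cortex and 2224 to 2248 CPM against 3657 to 3703 CPM in the cerebellum, and their part in the result was not tested. All of these were called in both tissues.

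For Slc30a9 and App the call belonged to a single form of the gene. Slc30a9, a zinc transporter, has the member ENSMUST00000113676 (chromosome 5, 3' UTR 3886 nt), which measured 10.1, 6.78, 12.4 and 7.63 CPM in Ctrl frontal cortex and 19.3, 17.9, 22.5 and 19.3 CPM in Ctrl cerebellum, and 0 in all 7 Upf3b-KO libraries. Against 3 counts over the Upf3b-KO libraries this was at least 393-fold lower in frontal cortex and at least 642-fold lower in the cerebellum. A second member with the same 3' UTR, ENSMUST00000162372, went from 94.8 to 88.2 CPM and from 85.5 to 113 CPM, and the gene sum differed by -0.02 in frontal cortex and 0.26 in the cerebellum. App, the amyloid precursor protein, has the member ENSMUST00000226801, which went from 18.2 to 46.8 CPM and from 14.9 to 46.7 CPM (1.30 and 1.65). Its main transcript with the same length of 3' UTR, 5646 nt, was at 1158 and 1154 CPM in frontal cortex and at 1110.5 and 1130.4 CPM in the cerebellum. In both genes the 3' UTR as such was present at a similar level in Ctrl and Upf3b-KO.

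The second question was whether long transcripts moved against the short ones of the same gene. Among 517 genes with both kinds tested in frontal cortex, the median of the long minus the short log2 fold change was -0.06, with the long form higher in 236 and lower in 281. In the cerebellum it was -0.07 over 549 genes, higher in 243 and lower in 306. The frontal cortex median was -0.029 without Upf3b-KO library 3, -0.035 without Ctrl library 1 and -0.082 without Ctrl library 2, and the cerebellar median was -0.11 without Ctrl library 1. The difference was over 2-fold in favour of the long form in 22 genes and of the short form in 56 in frontal cortex, and in 42 and 54 in the cerebellum. By library, the median within genes lay between -0.074 and -0.025 in Upf3b-KO and between -0.036 and 0.018 in Ctrl frontal cortex, so these overlapped, and between -0.069 and -0.063 against -0.040 to 0.028 in the cerebellum, where they did not. In frontal cortex this sign is opposite to that of the ratio of summed counts given above.

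Per length, the long form dominated in most genes. In 888 genes with enough counts, the long transcripts held a median of 91.1% to 93.6% of the level per length of long plus short transcripts in each library, and the median difference between Upf3b-KO and Ctrl was 0.0 percentage points in both tissues. The long share was higher in every Upf3b-KO than in every Ctrl library in 15 genes (1.69%) of the frontal cortex and lower in 46 (5.18%), and higher in 44 (4.95%) and lower in 83 (9.35%) of the cerebellum. Between the tissues of Ctrl mice, the cerebellum was higher without overlap in 61 genes (6.87%) and lower in 67 (7.55%), and in Upf3b-KO mice in 66 (7.43%) and 79 (8.9%). Shifts from long to short were thus more frequent than the reverse in Upf3b-KO, and they touched a small part of the genes.

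Mprip, whose protein binds myosin phosphatase, was one of them. Its long share was 61.5%, 70.3%, 64.5% and 65.4% in Ctrl and 51.3%, 48.6%, 52.4% and 54.0% in Upf3b-KO frontal cortex, and 70.8%, 82.5%, 76.9% and 78.7% in Ctrl and 67.4%, 58.5% and 56.5% in Upf3b-KO cerebellum. The long member ENSMUST00000072031 (chr11:59552864-59671687) measured 46.3, 52.2, 48.5 and 51.7 CPM and then 30.8, 31.4, 33.1 and 34.5 CPM in frontal cortex, and 91.1, 91.6, 93.3 and 88.0 CPM and then 39.3, 42.5 and 39.2 CPM in the cerebellum (-1.18 ± 0.039, adjusted p = 2.06e-06). Against the rest of its gene (edgeR diffSpliceDGE, adjusted over all transcripts of genes with several tested) its usage in the cerebellum fell by 0.72 on the log2 scale (adjusted p = 0.00285). Both groups stood apart in every tissue, and the short end shown above lies upstream of the long end in the same orientation.

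Ncam1, the neural cell adhesion molecule, had a long share of 67.0%, 63.7%, 64.6% and 66.9% in Ctrl and 57.7%, 58.0%, 57.4% and 59.1% in Upf3b-KO frontal cortex. The cerebellar share was 42.3%, 43.3%, 46.1% and 45.4% in Ctrl and 35.0%, 34.3% and 33.6% in Upf3b-KO, so genotype and tissue each separated the libraries. The long member ENSMUST00000193547 (chr9:49413436-49710357) measured 71.7, 67.3, 61.8 and 66.9 CPM in Ctrl and 29.6, 35.7 and 28.4 CPM in Upf3b-KO cerebellum (-1.10 ± 0.089, adjusted p = 0.000151). Its usage fell by 1.04 on the log2 scale (adjusted p = 7.63e-09). The short transcript ENSMUST00000114476, whose 3' UTR of 228 nt ends with ATTAAA, went from 125 to 154 CPM in the cerebellum.

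Atp2b2, a calcium pump of the plasma membrane, had a long share of 93.7% ± 2.2 in Ctrl and 91.4% ± 0.88 in Upf3b-KO frontal cortex (n = 4 each), with overlapping libraries. In the cerebellum the share was 87.0%, 85.4%, 87.8% and 84.9% in Ctrl and 69.4%, 73.9% and 71.2% in Upf3b-KO. Slc38a1, a glutamine transporter, went the other way, from 57.8% to 60.3% in Ctrl to 61.9% to 71.3% in Upf3b-KO frontal cortex and from 54.4% to 56.2% to 65.3% to 67.3% in the cerebellum. Rasgrf1, an exchange factor for Ras, had a long share of 6.24% ± 0.36 in Ctrl and 7.27% ± 0.44 in Upf3b-KO frontal cortex but of 12.0% ± 0.23 and 6.99% ± 0.56 in the cerebellum. Its long member ENSMUST00000189545 has 2 exons, and its 3' UTR of 4214 nt covers 113 nt that other transcripts translate.

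**Figure D5:**
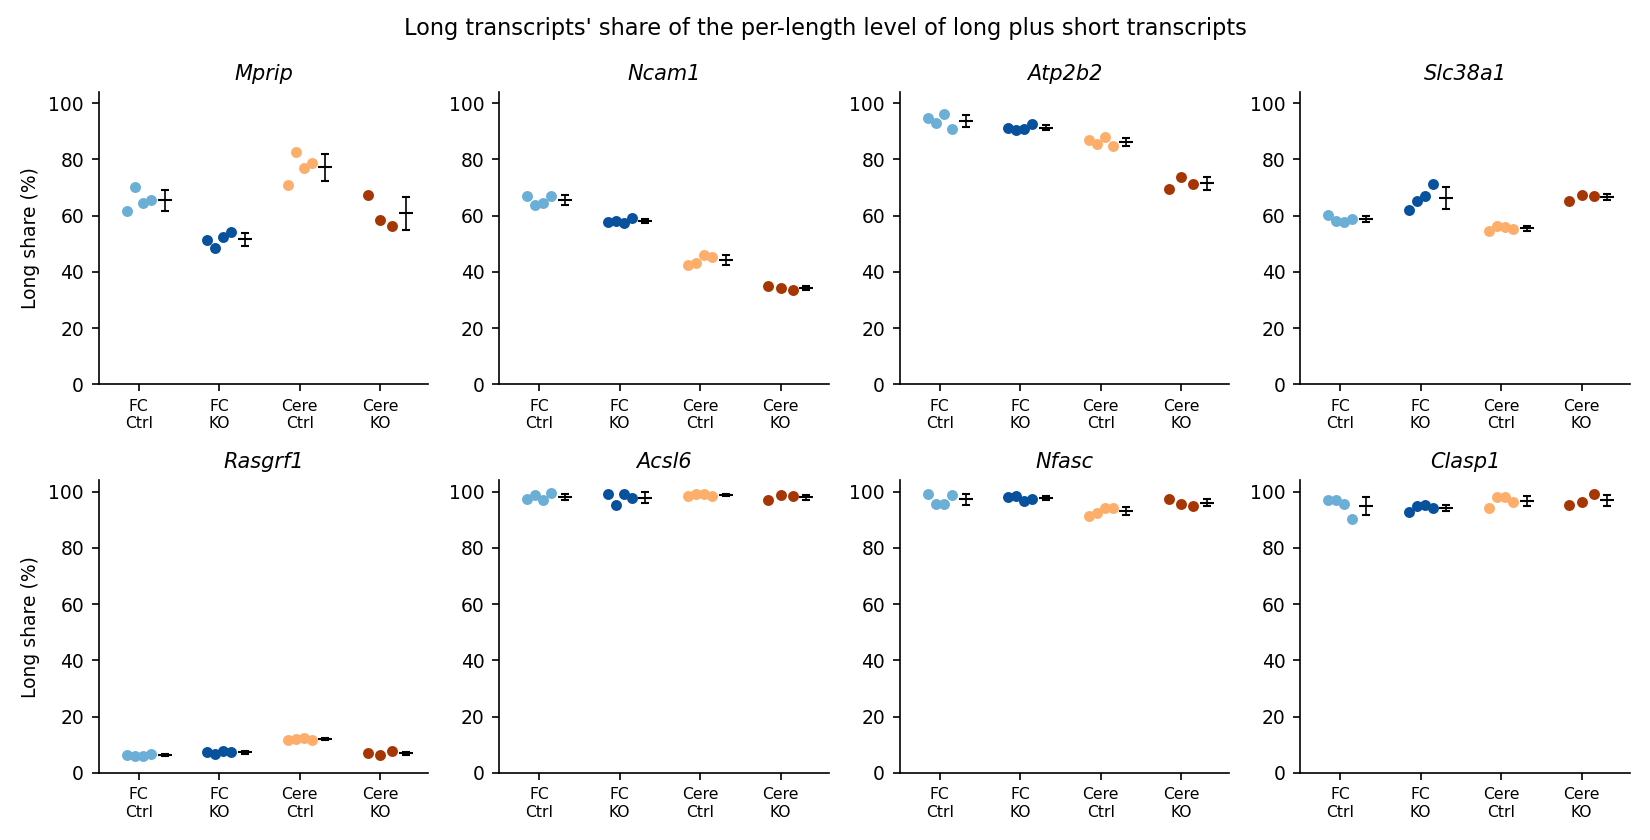
Long transcripts in percent of the level per length of long plus short transcripts, in every library, for 8 genes by tissue and genotype, with the group mean and SD. Mprip and Ncam1 have a lower share in Upf3b-KO in both tissues, Atp2b2 and Rasgrf1 in cerebellum, Slc38a1 has a higher share, and Acsl6, Nfasc and Clasp1 stay above 90%.

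Usage tests called few members as moving against their gene. On simulated counts these tests recovered 22 and 18 of 100 transcripts changed by a log2 of 1.5 in frontal cortex and cerebellum. At a log2 of 3 they recovered 54 of 100 in each. Many shifts can therefore be missed. In frontal cortex 18 of 4311 members tested had higher usage and 7 lower, with 0.414% and 0.167% as the shares over all transcripts, and in the cerebellum 19 and 17 of 4422, with 0.424% and 0.356%. All 18 of the former and all 19 in the cerebellum shared their 3' UTR with another member, as did 5 of the 7 and 14 of the 17 with lower usage, beside 72.4% and 71.6% of the members tested. The counts of higher and lower usage in frontal cortex became 8 and 8 without Upf3b-KO library 1 and 73 and 66 with limma's test of usage. In the cerebellum they became 8 and 12 with Upf3b-KO library 1 kept in and 115 and 130 with limma. Atp2b2 ENSMUST00000101045 measured 111, 117, 115 and 120.2 CPM in Ctrl and 201, 209, 189.7 and 205 CPM in Upf3b-KO frontal cortex (0.73 ± 0.037), with usage up by 0.42 (adjusted p = 0.00794). Il6st ENSMUST00000183663, a form of the receptor subunit gp130, went from 26.4 ± 2.5 to 39.2 ± 2.6 CPM in the cerebellum with usage up by 0.90 (adjusted p = 0.00198).

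Acsl6, an acyl-CoA synthetase that handles polyunsaturated fatty acids in brain, has 7 members with the long end shown above. ENSMUST00000094194 measured 24.4, 17.7, 37.5 and 10.1 CPM in Ctrl cerebellum and 0 in the 3 deep Upf3b-KO libraries and in all 8 libraries of the frontal cortex. Against 3 counts over the Upf3b-KO libraries it was at least 739-fold lower, and its usage passed the test (adjusted p = 3.88e-11). ENSMUST00000101213 went from 65.9 ± 8.1 to 126 ± 6.1 CPM in the cerebellum, with usage up by 0.80 (adjusted p = 0.00672), and from 167 ± 11 to 132 ± 4.0 CPM in frontal cortex. The gene sum differed by 0.09 in the cerebellum and the long share stayed above 95% in every group mean.

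Several usage calls rested on low or uneven counts. Lrp8 ENSMUST00000106733, a form of a reelin receptor, was at 0 in all 4 Ctrl libraries and at 0.674, 1.25, 1.22 and 0.947 CPM in Upf3b-KO frontal cortex, at least 44.9-fold higher than 3 counts over the Ctrl libraries, and in the cerebellum single libraries of both genotypes had 2.52 and 2.03 CPM. Nfasc ENSMUST00000163770, a form of neurofascin, measured 0, 0, 0 and 0.624 CPM in Ctrl and 12.4, 7.82, 7.72 and 3.29 CPM in Upf3b-KO frontal cortex, where usage passed (adjusted p = 6.21e-05) and the level did not (adjusted p = 0.0268, or 0.00257 without Ctrl library 4). Lrch3 ENSMUST00000170201 measured 0, 0.477, 0.0609 and 0 CPM in Ctrl and 2.96, 2.98, 0.493 and 1.59 CPM in Upf3b-KO frontal cortex. Mapk9 ENSMUST00000178543, a form of the kinase JNK2, measured 14.9, 0, 1.08 and 0 CPM in Ctrl and 65.6, 50.6 and 80.6 CPM in Upf3b-KO cerebellum, with usage up by 3.93 (adjusted p = 3.88e-05) and an adjusted p of 0.0932 for the level, or 0.00288 without Ctrl library 1. In Ctrl frontal cortex the same form ranged from 0 to 25.01 CPM.

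On chromosome 18, Osbpl1a ENSMUST00000234118 stood under 0.002 CPM in 3 Ctrl libraries of the frontal cortex and at 12.2 CPM in the fourth, with 13.6, 29.9, 106 and 84.4 CPM in Upf3b-KO. Tcf4 ENSMUST00000201781, a form of a transcription factor, measured 6.91, 2.22, 12.3 and 8.74 CPM in Ctrl cerebellum and 0 in the other groups, at least 239-fold lower in Upf3b-KO cerebellum, a call lost without Ctrl library 1 or 4 (log2 fold changes of -10.94 and -10.87, adjusted p = 0.0105 and 0.0106), and shares its 3' UTR of 6007 nt with 21 other members. Clasp1 ENSMUST00000188710, a form of a microtubule-binding protein with the end that lacks a hexamer, measured 9.62, 10.98, 8.88 and 6.46 CPM in Ctrl and 1.55, 1.39, 1.10 and 1.71 CPM in Upf3b-KO frontal cortex (-2.71 ± 0.22, adjusted p = 0.000103). It went from 4.36 ± 0.60 to 0.530 ± 0.37 CPM in the cerebellum (-3.06 ± 0.60, adjusted p = 0.0105). Unlike the other 2, it shares its 3' UTR end with no other member.

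The tissues were also compared within each genotype, treating libraries from the same mice as independent. In Ctrl mice, of 5198 members tested 346 (6.66%) were higher and 652 (12.5%) lower in the cerebellum, against 5.99% and 8.95% of all transcripts. In Upf3b-KO mice 234 (4.32%) of 5420 were higher and 472 (8.71%) lower, against 3.31% and 6.74%. Lower levels in the cerebellum were thus the more frequent direction among members in both genotypes. Within genes the median of the long minus the short form was -0.03 in Ctrl (509 genes) and -0.04 in Upf3b-KO (556), and it depended on single libraries. In Ctrl it was -0.077 and -0.059 without library 2 or 3 of the frontal cortex and -0.013, -0.074, -0.058 and -0.014 without library 1, 2, 3 or 4 of the cerebellum. In Upf3b-KO it was -0.019 and -0.00013 without library 2 or 4 of the frontal cortex, -0.018 without library 2 of the cerebellum, and 0.00090 with a 3' UTR limit of 1500 nt. The median over members was -0.02 in Ctrl.

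Usage of members differed between the Ctrl tissues in 162 cases, 71 higher and 91 lower in the cerebellum of 4292 tested, with 1.19% and 1.16% over all transcripts. In Upf3b-KO it was 49 and 74 of 4555, with 0.765% and 1.0%. Ablim1, an actin-binding protein, exchanged 2 members with the same end. ENSMUST00000104902 measured 5.12, 5.14, 5.69 and 8.70 CPM in Ctrl frontal cortex and 59.1, 59.0, 49.97 and 59.2 CPM in Ctrl cerebellum (usage up by 1.75, adjusted p = 3.32e-12), and ENSMUST00000111529 went from 44.6 ± 5.8 to 34.3 ± 6.2 CPM (usage -1.84, adjusted p = 5.73e-16). In Slc38a1, 2 members were both higher in Ctrl cerebellum, while their usage moved in opposite directions. ENSMUST00000088454 was at 49.0 ± 3.0 and 271 ± 14 CPM (usage up by 0.69) and ENSMUST00000088452 at 69.4 ± 4.9 and 121 ± 12 CPM (usage -0.98).

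Dlgap1, a scaffold of the postsynaptic density, had its member ENSMUST00000060072 at 46.3 ± 4.4 CPM in Ctrl frontal cortex and 68.1 ± 4.9 CPM in Ctrl cerebellum, with usage up by 1.28 (adjusted p = 2.33e-13). The Ncam1 member described above had lower usage in the cerebellum by -1.02 (adjusted p = 8.63e-15), the direction that its usage also took in Upf3b-KO cerebellum. On chromosome 18, Osbpl1a ENSMUST00000119043 went from 43.8 ± 7.0 to 0.619 ± 0.66 CPM and Tcf4 ENSMUST00000202435 from 21.6 ± 4.9 to 0.811 ± 1.6 CPM.

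The third question, whether the effect of genotype depended on the tissue, was put to an interaction test over 15 libraries, which it treats as independent although both tissues came from the same mice. Of 5684 members tested, 232 (4.08%) had a more positive genotype difference in the cerebellum and 65 (1.14%) a more negative one, against 2.21% and 0.757% of all transcripts. Rasgrf2, an exchange factor for Ras (ENSMUST00000151408), measured 108, 105.2, 109 and 106 CPM in Ctrl and 123, 118, 113 and 117 CPM in Upf3b-KO frontal cortex. Cerebellar levels were 2.84, 2.68, 3.04 and 2.42 CPM in Ctrl and 43.0, 42.5 and 45.4 CPM in Upf3b-KO, an interaction of 3.92 ± 0.074 (adjusted p = 2.73e-13). Its level in Upf3b-KO cerebellum lay between those of the Ctrl cerebellum and the frontal cortex.

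Fibcd1, which fell in frontal cortex, measured 0.492, 0.529, 0.264 and 0.470 CPM in Ctrl and 9.003, 7.55 and 7.40 CPM in Upf3b-KO cerebellum (4.17 ± 0.28), and the interaction was 5.29 ± 0.17 (adjusted p = 4.89e-11). Ncs1, the neuronal calcium sensor, went from 429 ± 3.0 to 348 ± 3.6 CPM in frontal cortex, then from 166 ± 4.8 to 341 ± 3.7 CPM in the cerebellum, an interaction of 1.41 ± 0.026 (adjusted p = 2.21e-13). Arhgef4, at 251 ± 5.4 CPM in Ctrl and 280.1 ± 1.3 CPM in Upf3b-KO frontal cortex, had an interaction of 1.38 ± 0.025. In all 3 the Ctrl cerebellum had less than the frontal cortex and the Upf3b-KO cerebellum stood closer to it.

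Members with a negative interaction included Rgs8 (-1.85 ± 0.032, adjusted p = 1.17e-13), Calb1 (-1.35 ± 0.029) and Scn4b (-1.54 ± 0.054). Rgs8 measured 54.1, 55.3, 54.5 and 54.7 CPM in Ctrl and 80.6, 78.1, 83.1 and 85.3 CPM in Upf3b-KO frontal cortex (0.52 ± 0.030, adjusted p = 1.62e-05), so its difference had opposite signs in the 2 tissues. Calb1 was at 224 ± 3.3 CPM in Ctrl and 232 ± 6.2 CPM in Upf3b-KO frontal cortex. Pde10a measured 27.2, 40.9, 39.9 and 27.1 CPM in Ctrl and 50.2, 33.3 and 26.3 CPM in Upf3b-KO cerebellum, with full overlap, and its interaction of -2.07 ± 0.28 (adjusted p = 0.000111) came from frontal cortex. Atp2b2 ENSMUST00000101045 was higher in Upf3b-KO frontal cortex and lower in Upf3b-KO cerebellum, at 317, 334, 315 and 322 CPM in Ctrl and 228, 222 and 239.5 CPM in Upf3b-KO (-0.49 ± 0.033), an interaction of -1.22 ± 0.052. The cell type markers named above differ between the tissues in the same libraries, and their part in these interactions was not tested.

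NMD factors are themselves known NMD targets through their long 3' UTRs, and few of them are members under the rule. Of 21 on the list, Smg1, Nbas and Gspt1 have members, 4 in all, while Upf1 and Smg5, for example, have none. Smg1, the kinase that phosphorylates UPF1, measured 22.5, 23.2, 21.7 and 20.7 CPM in Ctrl and 31.5, 29.996, 29.7 and 29.5 CPM in Upf3b-KO frontal cortex (0.39 ± 0.049, adjusted p = 0.00107), and went from 51.8 ± 2.6 to 44.0 ± 0.42 CPM in the cerebellum (-0.24 ± 0.044, adjusted p = 0.00758). Nbas went from 37.5 ± 2.1 to 43.3 ± 1.1 CPM and from 49.0 ± 1.5 to 55.8 ± 2.3 CPM (adjusted p = 0.0752 and 0.0156). At an adjusted p under 0.05, which 8.67% of all transcripts passed upward and 7.68% downward in frontal cortex and 12.3% and 10.3% in the cerebellum, 1 of the 4 members was up in frontal cortex, and 1 was up and 2 were down in the cerebellum. Over all members tested, 8.67% passed upward and 14.6% downward in frontal cortex, and 16.2% and 19.7% in the cerebellum. By gene sums at the same limit, 8 of 20 factors were up and 5 down in frontal cortex (28.0% and 25.3% of all genes), and 3 up and 12 down in the cerebellum (33.1% and 31.3%).

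Of 42 genes for proteins that bind 3' UTRs, 20 have members, 59 in all. At an adjusted p under 0.05, 4 of 48 tested were up and 7 down in frontal cortex, and 2 of 46 were up and 16 down in the cerebellum, with medians of -0.07 and -0.27. Of all transcripts, 8.67% were up and 7.68% down in frontal cortex by that rule, and 12.3% and 10.3% in the cerebellum. Of all members tested, 8.67% were up and 14.6% down in frontal cortex, and 16.2% and 19.7% in the cerebellum. Nova1, a neuronal splicing factor, was higher in Upf3b-KO cerebellum, at 53.0 ± 1.4 CPM in Ctrl and 78.6 ± 0.52 CPM in Upf3b-KO (0.57 ± 0.029, adjusted p = 1.39e-05). Ago4, a carrier of microRNAs, measured 7.75, 6.91, 6.72 and 7.60 CPM in Ctrl and 14.1, 14.5, 15.1 and 13.4 CPM in Upf3b-KO frontal cortex (0.92 ± 0.085, adjusted p = 0.000208), close to the 2-fold limit. Celf2 ENSMUST00000114934 measured 37.7, 43.4, 28.7 and 30.8 CPM and then 6.12, 5.69, 1.06 and 11.1 CPM in frontal cortex (-2.61 ± 0.56, adjusted p = 0.0148, or 0.00264 without Upf3b-KO library 3), with usage at -2.62 (adjusted p = 9.3e-05), while the gene sum differed by -0.01, and it shares its 3' UTR with 12 other members.

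Cleavage and polyadenylation factors decide where a 3' UTR ends, and 6 of 22 on the list have members, 7 in all. Of 6 tested, 3 were down in frontal cortex and 5 in the cerebellum at an adjusted p under 0.05, with medians of -0.11 and -0.33, beside 7.68% and 10.3% of all transcripts and 14.6% and 19.7% of all members tested. Nudt21, which with Cpsf6 forms the factor that favours distal poly(A) sites, went from 73.0 ± 3.3 to 67.2 ± 3.1 CPM in frontal cortex, then from 71.3 ± 1.1 to 57.8 ± 0.80 CPM in the cerebellum (-0.31 ± 0.025, adjusted p = 0.000152). Cpsf6 went from 87.6 ± 3.2 to 83.2 ± 0.66 CPM and from 113 ± 3.4 to 88.6 ± 0.12 CPM (-0.36 ± 0.027, adjusted p = 0.000104). Rbbp6 went from 46.2 ± 1.1 to 38.4 ± 1.4 CPM and from 64.5 ± 2.1 to 49.3 ± 0.52 CPM, and Wdr33, on chromosome 18, from 39.0 ± 1.3 to 44.4 ± 1.6 CPM and from 53.0 ± 1.4 to 39.96 ± 1.1 CPM. By gene sums, 10 of 22 factors were down and 4 up in frontal cortex, and 16 down and 3 up in the cerebellum, beside 25.3% of all genes down and 28.0% up in frontal cortex and 31.3% and 33.1% in the cerebellum.

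Of 25 neuronal genes known for long or alternative 3' UTRs, 15 have members, 42 in all, and Bdnf has none. At an adjusted p under 0.05, 2 of 37 tested were up and 13 down in frontal cortex, while 10 of 36 were up and 7 down in the cerebellum, beside 8.67% and 7.68% of all transcripts in frontal cortex and 12.3% and 10.3% in the cerebellum. Among all members tested the shares were 8.67% and 14.6% in frontal cortex and 16.2% and 19.7% in the cerebellum. By gene sums, 3 of the 25 genes were up and 16 down in frontal cortex (median -0.14), and 6 up and 14 down in the cerebellum (median -0.11), so that in the cerebellum the more frequent direction was not that of the members. Map1b, a microtubule-associated protein of axons, measured 1257, 1221, 1228 and 1233 CPM in Ctrl and 1058, 1083, 1066 and 1076 CPM in Upf3b-KO frontal cortex (-0.27 ± 0.013, adjusted p = 4.42e-06). In the cerebellum it measured 678, 703, 710.5 and 696 CPM and then 1224, 1211 and 1247 CPM (0.81 ± 0.020, adjusted p = 5.36e-07), with an interaction of 1.09 ± 0.024. Grin2b, a subunit of the NMDA receptor with a 3' UTR of 18865 nt, measured 85.6, 86.3, 80.1 and 83.7 CPM and then 56.4, 56.0, 56.4 and 57.4 CPM in frontal cortex (-0.63 ± 0.028, adjusted p = 3.68e-06). It was at 3.69 ± 0.53 and 3.85 ± 0.36 CPM in the cerebellum. These 2 genes had no overlap between genotypes where they were abundant, and both stayed under 2-fold.

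The longest 3' UTRs of all belong to Nopchap1 and Macir, whose genotypes overlapped in frontal cortex. Nopchap1 (122583 nt, chr10:83196071-83324369) measured 34.8, 33.1, 28.6 and 30.3 CPM in Ctrl and 31.8, 34.8, 30.1 and 29.1 CPM in Upf3b-KO frontal cortex (-0.08 ± 0.080, adjusted p = 0.637). In the cerebellum it went from 33.9 ± 1.8 to 36.1 ± 1.2 CPM (0.09 ± 0.054, adjusted p = 0.319). Reads of other genes that overlap such a 3' UTR cannot be told apart from its own in these counts. The 2 members of Macir (39397 nt, chr1:97534043-97589424 for the main one) had 19.8 ± 4.1 and 23.4 ± 0.66 CPM, and 1.45 ± 0.36 and 1.52 ± 0.55 CPM, in Ctrl and Upf3b-KO frontal cortex. In the cerebellum the main one had 10.04 ± 1.8 and 10.6 ± 2.4 CPM.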

How the data were processed

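RNA of mouse frontal cortex and cerebellum was ribodepleted, made into SMART-Seq v4 PLUS libraries and sequenced as read pairs. The values the authors deposited are RSEM expected counts per Ensembl transcript, not scaled for depth or length, and the submitters' processing notes name STAR 2.5.2b, GRCm39, RSEM, Subread, featureCounts and DESeq2. RSEM divides reads shared by several transcripts, and whether counting used strand is not given in the sources used here. Of 142435 transcripts, 141102 matched GENCODE vM39 (GRCm39), a later release than the authors', and carried 99.4% of the counts. Coding ends, 3' UTRs and sequences come from it.

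Expected counts were rounded and tested in R 4.3.3 with edgeR 4.0.16 (filterByExpr with minimum count 10 and minimum total 15, TMM scaling, quasi-likelihood F test, Benjamini-Hochberg over all transcripts tested). Usage was tested with diffSpliceDGE at an adjusted p under 0.01. The SE is the absolute log2 fold change divided by the square root of F. Gene sums were fitted likewise. CPM are counts scaled to the library total, TPM are per length, and floors of 3 counts cover counting error only, since reads are not independent molecules. Library 1 of the Upf3b-KO cerebellum was left out.

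The transcript set and the gene lists were chosen with earlier results of these data known. Named transcripts are, in each tissue, the 6 members up and 6 down of lowest adjusted p whose libraries do not overlap, the 5 up and 5 down called in both tissues, the 5 in each direction by usage in genes with a short transcript (genotype in each tissue, and tissue in Ctrl), the 3 in each direction by interaction, up to 4 members of each list and the 3 longest 3' UTRs. Others are said to be chosen after their values were seen. On simulated counts the fits recovered 72, 74, 71 and 64 of 100 transcripts changed by a log2 of 1.5 in the comparisons of genotype in frontal cortex and cerebellum and of tissue in Ctrl and Upf3b-KO, and 93, 97, 97 and 85 of 100 changed by 3. The changed transcripts were drawn only from better-counted ones of genes with several tested, so these rates do not cover members at low counts. Alternatives were DESeq2 1.42.0, median-of-ratios scaling, other count filters, a fold of 1.5, other 3' UTR limits, limma 3.58.1 diffSplice, summed counts, short transcripts without a dEJ, the replicate number as a block, each library left out and, added after seeing the data, the limit of 10 CPM on the mean and the block for the medians. EBSeq, DEXSeq and IsoformSwitchAnalyzeR were not run here. Some named transcripts are not reported here.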

Additional observations from a re-analysis of the deposited data

Results flagged for a closer look

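In 14 of 210 groups of 4 libraries, 1 library of a named transcript lay farther from the rest than a 95% limit for such gaps allows, and chance alone gives about 1 in 20. In Ctrl libraries, Lrp8 ENSMUST00000106733 had 2.52 CPM in 1 library of the cerebellum and 0 in the others, Nfasc ENSMUST00000163770 had 0.624 CPM in 1 of the frontal cortex and 0 in the others, Lrch3 ENSMUST00000170201 had 0.477 CPM with the others at 0 to 0.0609, and Tcf4 ENSMUST00000202435 had 3.25 CPM in 1 library of the cerebellum with the others at 0. Osbpl1a ENSMUST00000234118 had 12.2 CPM in 1 Ctrl library of the frontal cortex with the others at 0.000303 to 0.00186. Mapk9 ENSMUST00000178543 had 14.4 CPM in 1 Upf3b-KO library of the frontal cortex (others 0 to 1.63) and 14.9 CPM in 1 Ctrl library of the cerebellum (others 0 to 1.08).

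In well-counted transcripts the gaps were small. Ccn3 had 98.5 CPM in 1 Upf3b-KO library of the frontal cortex with the others at 103, Gabra2 had 107 CPM with the others at 102, and Slc38a1 ENSMUST00000088454 had 50.5 CPM with the others at 59.3 to 60.7. Rasgrf1 ENSMUST00000189545 had 43.6 CPM in 1 Ctrl library of the cerebellum with the others at 44.9 to 45.0. Ablim1 ENSMUST00000104902 had 8.70 CPM in 1 Ctrl library of the frontal cortex (others 5.12 to 5.69) and 50 CPM in 1 of the cerebellum (others 59.0 to 59.2). Nudt21 had 77.9 CPM in 1 Ctrl library of the frontal cortex with the others at 71.0 to 72.1.

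For 17 named transcripts the difference between Upf3b-KO and Ctrl differed between the tissues by the interaction test (edgeR, adjusted p under 0.01 and over 2-fold). On the log2 scale, cerebellum minus frontal cortex, it was more positive for Rasgrf2 (3.92), Fibcd1 (5.29), Ncs1 (1.41), Arhgef4 (1.38), Acsl6 ENSMUST00000101213 (1.34), B3galt5 (1.09), Map1b (1.09) and Nat8l (1.07). It was more negative for Pde10a (-2.07), Gas7 (-1.94), Rgs8 (-1.85), Ablim1 ENSMUST00000104902 (-1.56), Scn4b (-1.54), Stk17b (-1.44), Icmt (-1.44), Calb1 (-1.35) and Atp2b2 ENSMUST00000101045 (-1.22). The interaction of Ablim1 was lost without Upf3b-KO library 2, 3 or 4 of the cerebellum, with adjusted p of 0.0113, 0.0142 and 0.0134 (values of -1.59, -1.54 and -1.55).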

How the results depend on the processing

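The medians below Ctrl in both tissues, and the lower long form within genes, kept their sign under each alternative run for the genotype comparisons, but split by level the members under 10 CPM had medians above 0 in both tissues. The count of called members of the frontal cortex (87) became 180 with a fold of 1.5, 143 with DESeq2, 47 with the replicate block (29 up and 18 down) and 33 at a mean of at least 10 CPM. In the cerebellum (322) it became 637, 121 with the replicate block (77 up and 44 down), 182 with Upf3b-KO library 1 kept in and 155 at 10 CPM or more. Between tissues it went from 998 to 1576 and 628 in Ctrl, and from 706 to 1135 and, with the block, 434 in Upf3b-KO. With limma diffSplice, members with changed usage numbered 139 in place of 25 in frontal cortex, 245 in place of 36 in the cerebellum, and 626 and 456 in place of 162 and 123 between tissues, so these counts depend on the tool. With the block they were 16 (10 higher and 6 lower) in frontal cortex, and with library 1 kept in 20 in the cerebellum. The frontal cortex median (-0.029) was -0.018 with a 3' UTR limit of 1500 nt, -0.064 with 5000 nt, -0.025 with median-of-ratios scaling and -0.017 with no count filter. The cerebellum median (-0.039) was -0.019 at 1500 nt, -0.081 at 5000 nt, -0.015 with no filter, -0.053 with a minimum count of 30 and -0.075 with library 1. The median within genes moved from -0.057 to -0.083 at 1500 nt and -0.031 at a minimum count of 30 in frontal cortex, and from -0.073 to -0.049 with no filter, -0.11 with the block and -0.092 with library 1 in the cerebellum. Between Ctrl tissues the member median was -0.042 at 5000 nt, and the median within genes -0.10 at 5000 nt and -0.061 with the block. In Upf3b-KO the former was 0.00046 at 1500 nt, -0.040 at 5000 nt, 0.0018 with no filter, -0.010 with the block and -0.055 with library 1, and the latter 0.00090, -0.11 at 5000 nt, -0.020 with no filter and -0.011 at a minimum count of 30. The cause was not tested. Leaving out each library in turn gave 69 to 79 called members, medians of -0.035 to -0.026, -0.082 to -0.029 within genes and 16 to 27 with changed usage in frontal cortex, 236 to 290, -0.038 to -0.028, -0.11 to -0.060 and 31 to 42 in the cerebellum, 934 to 969, -0.024 to -0.011, -0.077 to -0.013 and 139 to 158 between Ctrl tissues, 636 to 670, -0.039 to -0.019, -0.055 to -0.00013 and 102 to 118 between Upf3b-KO tissues, and 271 to 296 for the interaction (297, or 228 with the block). Same-numbered libraries did not deviate together (correlations -0.038 to 0.058), so the number is not a pairing. Of the values of named transcripts under these alternatives, 4416 kept their direction and side of the threshold, 42 fell under it and 22 passed it, with 12 of the 42 under the block, and none changed sign. With the block, calls were lost in the cerebellum for Scn4b (log2 fold change 0.996, adjusted p = 0.00116), Tmem72 (5.05, 0.0191), Ncam1 ENSMUST00000193547 (-1.07, 0.0141), Acsl6 ENSMUST00000094194 (-12.47, 0.0182) and Tcf4 ENSMUST00000201781 (-10.99, 0.0376), and in frontal cortex for Lrp8 ENSMUST00000106733 (8.02, 0.106), by edgeR. The depth limits members at or near 3 counts, 0.0851 to 0.108 CPM, and calls on single forms that share a 3' UTR.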
